A study of Homo sapiens with 4 samples.

Results

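APOBEC3A, APOBEC3B, APOBEC3C, APOBEC3D, APOBEC3F, APOBEC3G and APOBEC3H, the human APOBEC3 cytidine deaminases, were read from the gene counts of A549 tumors by matching each gene symbol, which gave 7 of the 38137 genes in the files. A549 is a human lung adenocarcinoma line, grown here under the skin of male BALB/c athymic nude mice aged 6 weeks, which lack most T cells and keep other leukocytes. The 4 groups were control (neither treatment), exercise alone, radiation alone and the combination of aerobic exercise with radiation therapy. Exercised mice ran on a treadmill at 8.0 m/min for 30 min, and irradiated tumors received 2 Gy of 6 MV X-rays, each 3 times per week for 2 weeks. The study kept 5 mice per group, but RNA of each group was sequenced as 1 library, so no comparison of 2 libraries has a replicate check. Whether a library held 1 tumor or several is not given in the sources.

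The APOBEC3 enzymes convert cytosine to uracil in single-stranded DNA. They restrict retroviruses and mobile elements, and some of them also leave mutations in the genome of the tumor cell. Several members are induced by interferon, and the promoters of several respond to p53. APOBEC3B follows the cell cycle and is lowered by p53 through p21 and the DREAM repressor complex. The mouse carries a single Apobec3 gene, and how many of its reads aligned to the human members was not tested.

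In these tumors the family divided by radiation. APOBEC3C and APOBEC3F, the most abundant members, rose in the irradiated tumors (radiation and combination) relative to the unirradiated tumors (control and exercise). APOBEC3B fell in the irradiated tumors, a call lost in 5 of 9 alternative fits, and was highest with exercise alone. APOBEC3D had overlapping counting intervals in the 4 libraries, and APOBEC3A, APOBEC3G and APOBEC3H were at the edge of detection.

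The libraries held 33432637 to 35408705 reads assigned to genes. Values below are CPM, reads per 1000000 assigned reads after TMM scaling, whose factors ranged from 0.9796 to 1.0319. Ratios carry exact 95% intervals (Clopper-Pearson on the paired counts), and levels carry exact Poisson intervals. Both cover counting error only. Epithelial markers summed to 4689 to 5639 CPM, and genes known to be high in A549 to 10018 to 10840 CPM. CDKN2A, deleted in A549, had 1 read in control and 0 elsewhere, and CDKN2B had 0 reads in all 4 libraries. Of 6 alveolar type 2 markers, 4 were below the minimum mean of 20 reads that was set for comparing genes.

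The family as a whole had 1678 reads in control and 1602 with exercise, against 2432 with radiation and 2533 in the combination. APOBEC3C and APOBEC3F made up 89.0% to 95.7% of these reads. The family total was 1.49-fold higher with radiation than in control (95% interval 1.40 to 1.58) and 1.67-fold higher in the combination than with exercise (1.57 to 1.78). With exercise alone it was 0.987 of control (0.921 to 1.06). These totals are close to those of APOBEC3C plus APOBEC3F and say little about the other members.

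**Figure D1:**
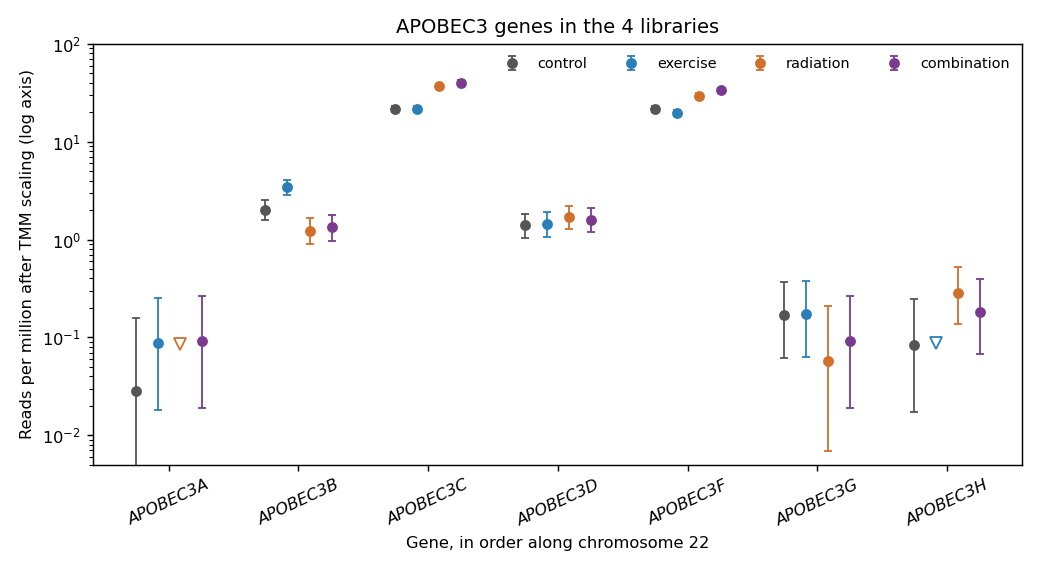
CPM after TMM scaling (log axis) of the 7 APOBEC3 genes, in order along chromosome 22, with 1 point per library coloured by group, bars for the 95% Poisson interval and open triangles at the level of 3 reads where a library had 0 reads. APOBEC3C and APOBEC3F lie between 19.7 and 40.3 CPM and are higher in both irradiated libraries, APOBEC3B is lower in both, and APOBEC3A, APOBEC3G and APOBEC3H stay below 0.3 CPM.

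All 7 genes sit side by side on chromosome 22, in a cluster of 146.5 kb on GRCh38 (RefSeq annotation), all on the plus strand and in the order of their letters. APOBEC3C spans chr22:39014257-39020352. APOBEC3F spans chr22:39040864-39055972, and APOBEC3B spans chr22:38982347-38992779. APOBEC3D lies between APOBEC3C and APOBEC3F at chr22:39021127-39033277. Because the genes arose by duplication, reads can fall on stretches that paralogs share. Of all 100-base windows of the longest coding transcript (GENCODE 29), 0 of 2719 in APOBEC3C occurred in another gene, against 13.5% in APOBEC3F, 18.1% in APOBEC3B and 84.4% in APOBEC3D. The largest share with another member was that with APOBEC3A for APOBEC3B (7.68%), with APOBEC3G for APOBEC3F (7.55%) and with APOBEC3F for APOBEC3D (5.06%). Most shared windows of APOBEC3D were in AL022318.4, a GENCODE entry that overlaps it and is not a row of the count files. The search covered transcripts and not introns. How reads matching more than 1 gene were treated is not given in the sources.

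APOBEC3C, an enzyme with a single deaminase domain, had 777 reads in control and 744 with exercise, against 1288 with radiation and 1319 in the combination. These counts correspond to 21.8, 21.5, 37.0 and 40.3 CPM. Both irradiated libraries were above both unirradiated libraries, and the Poisson intervals of the pairs did not overlap. Radiation alone stood 1.70-fold above control (1.56 to 1.86), and the combination 1.87-fold above exercise (1.71 to 2.05). The effect of exercise was small by comparison. APOBEC3C was at 0.99 of control with exercise alone (0.894 to 1.10) and in the combination 1.09-fold above radiation alone (1.01 to 1.18).

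APOBEC3F, a restriction factor with paired deaminase domains, was likewise higher in the irradiated libraries, with smaller ratios to the unirradiated ones. It had 769 reads in control and 681 with exercise, against 1030 with radiation and 1106 in the combination, or 21.5, 19.7, 29.6 and 33.8 CPM. Both irradiated libraries were again above both unirradiated libraries. The ratio was 1.38 for radiation against control (1.25 to 1.51) and 1.71 for the combination against exercise (1.56 to 1.89). In the combination APOBEC3F was 1.14-fold above radiation alone (1.05 to 1.24), and with exercise alone it was at 0.915 of control (0.824 to 1.02).

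APOBEC3B, the nuclear member that is tied to proliferation and to mutation in several tumor types, went the other way. It had 72 reads in control and 118 with exercise, against 43 with radiation and 44 in the combination, or 2.02, 3.42, 1.24 and 1.34 CPM. Both irradiated libraries were below both unirradiated libraries, with exercise alone the highest. Exercise alone was 1.69-fold above control (1.25 to 2.3). Radiation alone was 1.63-fold below control (1.10 to 2.44), and the combination was 1.5-fold below control (1.02 to 2.24). The widest gap was between exercise and the combination, where APOBEC3B was 2.54-fold lower in the combination (1.78 to 3.68). Between the combination and radiation alone the ratio was 1.09 (0.697 to 1.69), so a difference was not detectable at this depth.

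APOBEC3B shares part of its span with the antisense gene APOBEC3B-AS1, which lies on the other strand at chr22:38991559-38998220. APOBEC3B-AS1 had 18 reads in control and 33 with exercise, against 13 with radiation and 19 in the combination, and was thus also highest with exercise. The library kit keeps the strand, but the strand setting of the counting is not given in the sources, so reads over the overlap cannot be assigned to one of the pair. APOBEC3A_B, the symbol of a deletion allele that fuses APOBEC3A to APOBEC3B, had 7, 8, 1 and 5 reads in the same order of libraries. Adding the reads of APOBEC3A and APOBEC3A_B to those of APOBEC3B gave 1.67-fold for exercise against control (1.25 to 2.23) and 0.425 for the combination against exercise (0.302 to 0.591). For radiation against control the sum gave 0.565 (0.382 to 0.826). For the combination against control it gave 0.709 (0.49 to 1.02), an interval that includes 1, unlike that of APOBEC3B alone.

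APOBEC3D, another restriction factor with paired domains, had 50 reads in control and 50 with exercise, against 59 with radiation and 52 in the combination. Its level stayed between 1.40 and 1.70 CPM, and the intervals of all 4 libraries overlapped. The ratio of radiation to control was 1.21 with an interval from 0.817 to 1.80, which holds both no difference and the ratio seen for APOBEC3C.

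The counts of APOBEC3D and APOBEC3F carry a limit of the gene models. The length implied by the deposited FPKM was the RefSeq span for APOBEC3D (12.2 kb) but 36.9 kb for APOBEC3F, whose RefSeq span is 15.1 kb. A model of that length ending at the RefSeq end of APOBEC3F would start at position 39019072 and cover all of APOBEC3D and the last 1281 bases of the APOBEC3C span. How the counting treated reads on overlapping models is not given, and its part in the low APOBEC3D count was not tested. The summed reads of APOBEC3C, APOBEC3D and APOBEC3F were 1.53-fold higher with radiation than in control (1.44 to 1.63). They were 1.77-fold higher in the combination than with exercise (1.66 to 1.89). These sums do not depend on the division among the genes only if each read was given to a single gene. Reads that were dropped or counted for more than 1 gene would change them.

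APOBEC3H, a member with a single deaminase domain at the end of the cluster, had 3 reads in control and 0 with exercise, against 10 with radiation and 6 in the combination. A count of 0 allows up to 3 reads, or 0.0868 CPM in the exercise library, as a one-sided limit, and up to 3.69 reads or 0.107 CPM by the two-sided Poisson interval used for the other levels. Summed over the pairs, the irradiated libraries held 16 reads and the unirradiated libraries 3, a ratio of 5.55 with an interval from 1.59 to 29.7. APOBEC3H did not reach the minimum mean of 20 reads, and with that minimum removed edgeR's quasi-likelihood test gave an adjusted p of 0.255 over 31530 genes.

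APOBEC3A, an interferon-induced member of myeloid cells, had 1, 3, 0 and 3 reads in control, exercise, radiation and combination. APOBEC3G, a restriction factor best known from T cells, had 6, 6, 2 and 3 reads in the same order. For APOBEC3G the irradiated libraries held 5 reads and the unirradiated libraries 12, a ratio of 0.434 with an interval from 0.12 to 1.32. For APOBEC3A they held 3 and 4 reads, a ratio of 0.78 (0.114 to 4.61). No direction can be read from either gene at this depth.

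The bases before the start of APOBEC3H are printed because it was the one member with an entry in the RefSeq promoter table used here (GRCh38.p14), so its letters can be searched for elements of the interferon, cell cycle and p53 pathways that appear below. They lie at chr22:39096994-39097243 on the plus strand, 250 bases that end just before the RefSeq start. Capitals mark each GAAA, the core that is repeated in interferon-stimulated response elements.
APOBEC3H upstream: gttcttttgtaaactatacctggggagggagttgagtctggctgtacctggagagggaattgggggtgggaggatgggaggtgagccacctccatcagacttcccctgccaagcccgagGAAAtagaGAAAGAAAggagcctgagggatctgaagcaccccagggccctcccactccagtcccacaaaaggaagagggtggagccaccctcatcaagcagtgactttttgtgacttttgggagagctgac
The window holds GAAA 3 times on the plus strand and 0 times on the minus strand, beginning 131, 123 and 119 bases before the start. GAAA is common, with a match on either strand in 82.6% of 35116 upstream windows of the same length. A pair of GAAA with any 2 bases between them, the core of the interferon-stimulated response element, had 0 matches on both strands and occurs in 3.02% of windows. The cell cycle element TTTGAA (13.3% of windows), the NF-kappaB site of the kappa light chain enhancer (0.179%) and the decamer that makes up p53 response elements (5.57%) also had 0 matches. These results say only that those letters are not in this window.

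Levels of different members were compared as CPM on total reads divided by the length of the longest coding transcript in kilobases (RPKM). In control, APOBEC3F at 8.25 RPKM (7.68 to 8.85) and APOBEC3C at 7.97 (7.42 to 8.55) overlapped in their intervals. APOBEC3B followed at 1.13 (0.883 to 1.42) and APOBEC3D at 0.572 (0.424 to 0.754). APOBEC3G at 0.0946, APOBEC3H at 0.0829 and APOBEC3A at 0.02 overlapped each other. With radiation, APOBEC3C at 12.9 (12.2 to 13.6) stood above APOBEC3F at 10.8 (10.1 to 11.5), and APOBEC3B at 0.659 (0.477 to 0.887) was level with APOBEC3D at 0.659 (0.502 to 0.85). The order depends on the length used. It also rests on the counts of APOBEC3D and APOBEC3F, which carry the limit of the gene models given above. Whether reads in introns were counted is not given in the sources. The lengths implied by FPKM were close to whole gene spans, introns included, for APOBEC3B (10.4 kb) and APOBEC3C (6.12 kb). Any intron reads in the counts would enter these RPKM without their length. On the deposited FPKM scale, where a kilobase is one of gene span, APOBEC3C was at 3.671 and APOBEC3F at 0.602 in control.

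**Figure D2:**
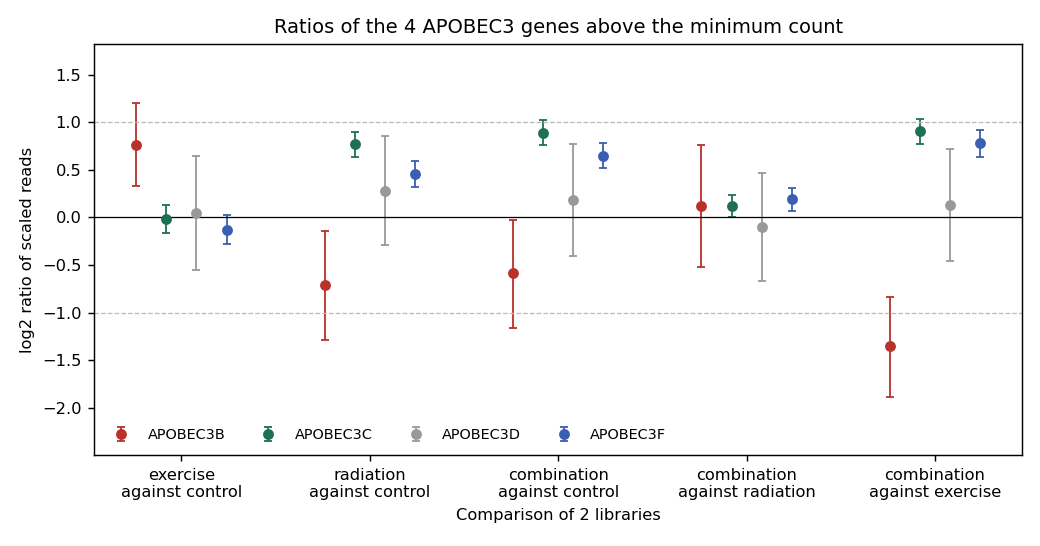
The log2 ratio of scaled reads for APOBEC3B, APOBEC3C, APOBEC3D and APOBEC3F in 5 comparisons of 2 libraries, with 95% counting intervals as bars and dashed lines at a 2-fold difference. APOBEC3C and APOBEC3F lie above 0 and APOBEC3B below 0 wherever an irradiated library is set against an unirradiated one, and APOBEC3B in the combination against exercise is the point beyond 2-fold.

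The share of the family past a fixed threshold was set beside that of all 19393 genes with a mean of at least 20 reads, which included 4 of the 7 members. With exercise against control, 0 of 4 members differed at least 2-fold, against 1.53% of all genes. The count was 0 of 4 with radiation against control (2.78% of all genes), 0 of 4 in the combination against control (4.04%) and 0 of 4 in the combination against radiation (1.30%). In the combination against exercise it was 1 of 4, APOBEC3B, against 5.98% of all genes. The differences in APOBEC3C and APOBEC3F fell short of 2-fold in each comparison, although their intervals lay above 1 wherever an irradiated library was set against an unirradiated one.

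Radiation was tested across libraries in a fit in which radiation and exercise were additive terms over all 4 libraries, leaving 1 residual degree of freedom shared through edgeR's quasi-likelihood moderation over all genes. It asks whether the difference by radiation exceeds the departure from additivity. The test called 3 of 4 members at a Benjamini-Hochberg adjusted p under 0.05, against 9.30% of all genes. APOBEC3C rose by 0.84 on the log2 scale in irradiated tumors (edgeR adjusted p = 0.000499, limma SE 0.11). APOBEC3F rose by 0.62 (edgeR adjusted p = 0.00597, limma SE 0.12). APOBEC3B fell by 1.04 (edgeR adjusted p = 0.0407, limma SE 0.29), and APOBEC3D differed by 0.21 (edgeR adjusted p = 0.734, limma SE 0.29). The exercise term of the same fit, added after the values were seen, called 0 of 4 members in edgeR and limma (0 at an unadjusted p under 0.05) and 0 in DESeq2, which gave APOBEC3B and APOBEC3D no adjusted p, against 0.0825% of all genes by edgeR. APOBEC3B differed by 0.48 on that term (edgeR adjusted p = 0.962).

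The call on APOBEC3B was the least stable. It was lost with about the same difference when exercise was removed as a term (log2 -1.07, edgeR adjusted p = 0.0742), with DESeq2 (-1.02, adjusted p = 0.36), without the radiation library (-0.996, edgeR adjusted p = 0.206) and without the combination library (-1.13, edgeR adjusted p = 0.219). Without the exercise library the difference was smaller (-0.64) and the call was lost, and without the control library it was larger (-1.40) and the call was kept. Fits without a library had radiation as their single term, so their differences by radiation include part of any difference by exercise. Without the control library, the irradiated libraries were set against exercise alone, where APOBEC3B was highest. APOBEC3F lost its call without the combination library, where its log2 difference was 0.52 (edgeR adjusted p = 0.0774). APOBEC3C kept its direction and its call in all 9 alternative fits.

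**Figure D3:**
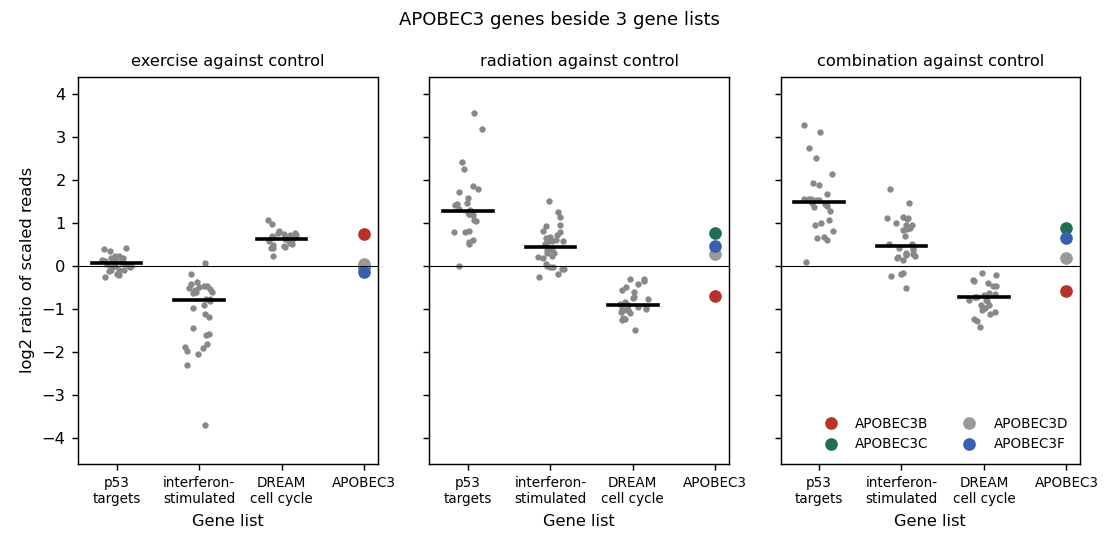
The log2 ratio to control of each gene in lists of 26 p53 targets, 30 interferon-stimulated genes and 25 cell cycle genes bound by DREAM (grey points, black lines at the medians) and of 4 APOBEC3 genes (coloured points), for exercise, radiation and combination. APOBEC3B is at 0.76 with exercise and -0.70 with radiation, beside DREAM medians of 0.64 and -0.90. APOBEC3C is at -0.015 and 0.77, beside medians of 0.065 and 1.28 for p53 targets and -0.80 and 0.45 for interferon-stimulated genes.

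The pathways known to act on this family were described from fixed gene lists. Among p53 targets, 25 of 26 rose in the irradiated tumors and 0 fell by the additive fit, where 1076 of 19393 genes rose and 727 fell. The median log2 ratio of radiation against control was 1.28, and that of exercise against control was 0.065, against medians near 0 for all genes (0.00071 and 0.0016). CDKN1A, which encodes p21, had 2164 reads in control and 2752 with exercise, against 11361 with radiation and 13349 in the combination. MDM2, the ubiquitin ligase of p53, had 3251, 2891, 9455 and 9508 reads. SPATA18 and EDA2R were highest, with log2 ratios of 3.55 and 3.19 for radiation against control, and TP53I3 and XPC lowest, at 0.0083 and 0.52. APOBEC3C and APOBEC3F lay within the range of this list in all 5 comparisons, and below its median wherever an irradiated library was set against an unirradiated one.

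Among cell cycle genes bound by DREAM, 25 of 25 fell and 0 rose in the irradiated tumors by the same fit. The list's median log2 ratio was 0.64 for exercise against control, -0.90 for radiation against control and -1.34 for the combination against exercise. APOBEC3B stood at 0.76, -0.70 and -1.34 in the same comparisons. MKI67, the proliferation antigen, had 3699 reads in control and 6007 with exercise, against 1704 with radiation and 1400 in the combination, with exercise the highest as for APOBEC3B. CDC25C and CENPA were lowest with radiation against control, at -1.50 and -1.25, and CCNB2 and TK1 were highest. Fewer cycling cells and less RNA per cell cannot be told apart in bulk tumors.

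Among interferon-stimulated genes, 17 of 30 rose and 0 fell in the irradiated tumors by edgeR, and DESeq2 called 7. Their median log2 ratio was -0.80 for exercise against control, 0.45 for radiation against control and 1.47 for the combination against exercise. IFI6, an interferon-induced mitochondrial protein, had 1707 reads in control and 396 with exercise, against 2748 with radiation and 4311 in the combination. CMPK2 and MX2 were highest with radiation against control, at 1.52 and 1.26, and EPSTI1 and OAS3 lowest. With exercise against control, IFI44L and XAF1 were lowest, at -3.70 and -2.29, and EPSTI1 and OAS1 highest, at 0.070 and -0.18. APOBEC3C and APOBEC3F were at -0.015 and -0.13 there. Both lay within the range of this list in all 5 comparisons, and above its median except in the combination against exercise, where they lay below it. Genes of interferon sensing and signalling differed less, with 2 of 16 called higher and 0 lower, and a median of 0.068 with radiation against control. TLR3, a sensor of double-stranded RNA, rose by 1.14 (edgeR adjusted p = 0.00382), and IFNAR1 rose by 0.36 (edgeR adjusted p = 0.0375). IRF1 differed by 0.34 (edgeR adjusted p = 0.166). IFNB1 had 0 reads in all 4 libraries. In the order control, exercise, radiation and combination, IFNL1 had 0, 0, 3 and 0 reads, IFNL2 0, 0, 1 and 1, and IFNL3 0, 0, 2 and 1. These counts are too low to read a direction.

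Among NF-kappaB genes, which include signals that raise APOBEC3B in other settings, 2 of 13 fell and 0 rose. The members called were TNFAIP3, a feedback inhibitor with 2348, 2975, 1668 and 1752 reads in the order control, exercise, radiation and combination, and ICAM1, an adhesion receptor with 402, 473, 230 and 265 reads. The list's median was 0.11 with exercise and -0.18 with radiation against control. TRAF1 and REL were the highest with radiation against control, and ICAM1 and TNFAIP3 the lowest.

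Other restriction factors that act on retroviruses and mobile elements had 1 of 12 called higher by edgeR and 0 lower, with a median of 0.20 for radiation against control and 0.29 by the additive fit. Of the 12 genes, 9 had an unadjusted p under 0.05, against 4465 of 19393 for all genes. The gene called was TRIM22, an interferon- and p53-responsive ubiquitin ligase, which had 152 reads in control and 69 with exercise, against 1408 with radiation and 1437 in the combination (log2 difference 3.78, edgeR adjusted p = 9.38e-07). BST2, the tether of budding virions, had 54, 6, 59 and 80 reads, and its difference by radiation did not pass (edgeR adjusted p = 0.139). SAMHD1, which depletes the nucleotides for reverse transcription, had 969, 764, 1081 and 1086 reads.

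The enzymes that process uracil in DNA after deamination did not pass the test. Of 12 genes of uracil repair and bypass, 0 were called by edgeR, limma or DESeq2, 5 had an unadjusted p under 0.05 in edgeR, and 0 differed 2-fold in any of the 5 comparisons. The median log2 ratio was 0.024 with exercise and -0.081 with radiation against control. UNG, the main uracil glycosylase, had 1680 reads in control and 1821 with exercise, against 1332 with radiation and 1446 in the combination. REV3L, the catalytic subunit of a bypass polymerase, had 1387, 1166, 1602 and 1359. Of 8 other deaminases, which act on RNA or free nucleotides, 0 were called by edgeR, limma or DESeq2, 1 had an unadjusted p under 0.05, and the median with radiation against control was 0.12. The gene with that p was ADARB1, with 307, 337, 242 and 154 reads (log2 difference by radiation -0.67, edgeR adjusted p = 0.0607). It was also the 1 gene of this list past 2-fold in the combination against exercise (log2 -1.05). ADAR, the interferon-responsive RNA adenosine deaminase, had 12668, 10864, 12457 and 11423 reads.

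Other APOBEC genes lie elsewhere in the genome. APOBEC2, a muscle protein covered about as well as APOBEC3B, had 60 reads in control and 73 with exercise, against 102 with radiation and 59 in the combination. APOBEC1, the RNA editing enzyme of apolipoprotein B, had 16, 23, 40 and 26 reads. Neither passed the test by radiation, with edgeR adjusted p of 0.26 for APOBEC1 and 0.61 for APOBEC2. For radiation against control the ratio was 2.57 for APOBEC1 (1.41 to 4.91) and 1.75 for APOBEC2 (1.26 to 2.44). For the combination against exercise it was 1.19 for APOBEC1 (0.654 to 2.19) and 0.853 for APOBEC2 (0.595 to 1.22). APOBEC4 was near the detection limit, with 0, 1, 4 and 1 reads.

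**Figure D4:**
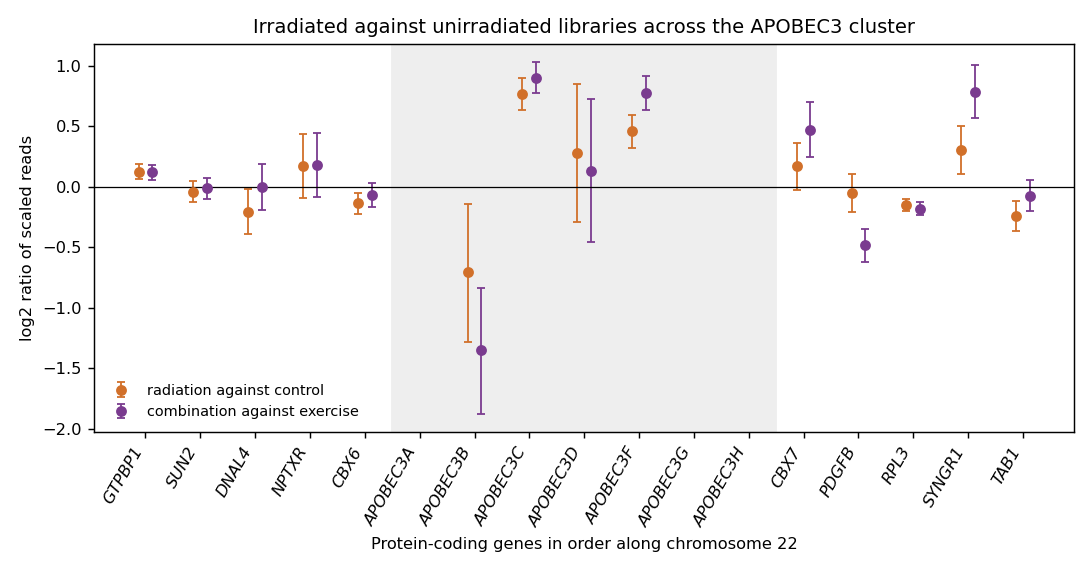
The log2 ratio of scaled reads for radiation against control and for the combination against exercise, with 95% counting intervals, of the APOBEC3 genes (shaded) and of 5 protein-coding genes on either side, in order along chromosome 22; APOBEC3A, APOBEC3G and APOBEC3H, below the minimum mean count, are not drawn. APOBEC3C, at 0.77 and 0.90, lies above each neighbour in both comparisons, and APOBEC3B below each. APOBEC3F, at 0.46 and 0.78, lies above each neighbour with radiation against control. In the combination against exercise it lies level with the neighbour SYNGR1, at 0.79.

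The genes around the cluster were compared in the same way. Of 10 protein-coding neighbours, 5 on each side, 0 were called by the additive fit in edgeR, limma or DESeq2, and 1 had an unadjusted p under 0.05. Their log2 differences by radiation ran from -0.27 for PDGFB to 0.54 for SYNGR1 (edgeR adjusted p = 0.236 and 0.0589). CBX6 and CBX7, the nearest on either side and both Polycomb chromobox genes, differed by -0.10 and 0.32. With exercise against control PDGFB, a growth factor, was 1.58-fold higher (1.44 to 1.74), and CBX7 was 0.70 of control (0.60 to 0.815).

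Some genes used as markers of other cells moved with the same contrast and are given beside these results. Host cells in these tumors are from the mouse, and the reads were aligned to the human genome. Whether the reads of these genes came from A549 cells or from mouse transcripts was not tested. Of 12 macrophage and neutrophil genes, 6 reached the minimum count and 2 of these rose by edgeR, CD68 by 1.25 and LYZ by 1.28 on the log2 scale (edgeR adjusted p = 9.59e-06 and 0.000106). The list was mixed in direction, with CD14 at 0.76 and FCGR1A at 0.37 but ITGAM at -0.41 and CSF1R at -0.15 (edgeR adjusted p from 0.124 to 0.457). CSF1R held most of its reads, 9933 of 13383 in control. The list summed to 375 CPM in control and 365 with exercise, against 433 with radiation and 497 in the combination. PTPRC, which defines leukocytes, had 7, 14, 8 and 15 reads, and of the 4 pan-leukocyte genes 2 reached the minimum and 0 were called by edgeR, limma or DESeq2 (1 with an unadjusted p under 0.05). The 9 T and NK cell genes summed to 176, 125, 163 and 137 reads and the 6 B and plasma cell genes to 107, 111, 130 and 112, with 2 genes of each list above the minimum and 0 called by the same tools (0 and 1 with an unadjusted p under 0.05). Of 7 fibroblast genes 3 fell, the collagens COL1A1, COL1A2 and COL3A1, and the list went from 329 CPM in control and 336 with exercise to 215 with radiation and 186 in the combination. Of 3 keratinocyte genes KRT5 and KRT14 fell, and PECAM1, the single endothelial gene above the minimum, fell by 1.13. The epithelial and alveolar type 2 genes had 0 called by the same tools (2 and 0 with an unadjusted p under 0.05), and ALDH3A1 was the 1 of 6 genes high in A549 that rose. The part of these cells in the APOBEC3 values was not tested.

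The genes closest to each abundant member were found from the 3 log2 ratios to control, as the Euclidean distance over 15385 genes with a mean of at least 100 reads. For APOBEC3C the closest were ORAI3 (distance 0.065), CTSA (0.0805) and P4HA2-AS1 (0.0823). ORAI3 had 1225 reads in control and 1185 with exercise, against 2063 with radiation and 1996 in the combination. For APOBEC3F they were LOC107986432 (0.0322), HEXA (0.0363) and PDZK1IP1 (0.0619). HEXA, a lysosomal hexosaminidase subunit, had 4048, 3512, 5439 and 5904 reads. APOBEC3C and APOBEC3F were 0.405 apart, so APOBEC3F ranked 268 among the genes nearest to APOBEC3C, and APOBEC3C ranked 948 among those nearest to APOBEC3F. P4HA2-AS1 is an antisense gene, whose reads may include those of its partner.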

How the data were processed

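RNA of A549 xenografts was measured in 4 libraries, 1 per group, assigned by the treatment label. Per the labels and methods, the libraries were stranded and polyA-selected, with a RIN above 7.0, and were read as 100 nt pairs. The submitters' processing notes name cutadapt, Bowtie2 2.3.4.1, featureCounts 1.6.0 and GRCh38. Neither the strand setting nor the treatment of mouse reads is given in the sources. The authors deposited unnormalized read counts per gene and FPKM, and the FPKM imply whole gene spans as lengths. Counts were used except where FPKM is named.

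TMM factors came from edgeR 4.0.16 (R 4.3.3) over genes with a mean of at least 20 reads, with 0.5 counts added before log2. Ratios were called at 2-fold. The additive fit (radiation plus exercise) used edgeR's quasi-likelihood test with Benjamini-Hochberg adjustment over 19393 genes. The exercise term was tested in the same fit after the data were seen. Alternatives used limma 3.58.1 and DESeq2 1.42.0. Procedures were tested on simulated data. For the additive fit these had a fixed spread for all genes and no departure from additivity, so they cannot vouch for the calls in these tumors. Each group has 1 library, so p-values measure only the spread between these 4 libraries, part of which may be technical.

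The members, the 19 gene lists and the tests were chosen with earlier results of these data known. Named genes were all members, APOBEC genes outside the cluster, other APOBEC3 symbols, 5 coding neighbours on each side, the 2 highest and 2 lowest genes of the lists described (not printed where the list was level), and the 3 genes nearest to each member with a mean of at least 100 reads. One gene of the rule is not reported here. Other genes were named after their values were seen. Symbols were matched to the RefSeq table of GRCh38.p14 and 1 list gene through an older symbol. The promoter table held 1 of the 7 members.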

Additional observations from a re-analysis of the deposited data

Results flagged for a closer look

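The exercise effect had opposite signs without and with radiation for 3 of the 4 better-covered members, and the difference was not tested against replicates. For APOBEC3F the log2 ratio was -0.13 for exercise against control and 0.19 for the combination against radiation, a gap of 0.32 with a counting interval from 0.12 to 0.51. For APOBEC3C the values were -0.015 and 0.12, a gap of 0.14 (-0.046 to 0.32). For APOBEC3D they were 0.047 and -0.095, a gap of -0.14 (-0.92 to 0.64). APOBEC3B was positive in both, at 0.76 and 0.12, with a gap of -0.64 (-1.38 to 0.10). The counting interval excluded 0 for APOBEC3F only, and it leaves out variation between animals.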

How the results depend on the processing

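Of 175 recomputed log2 ratios of the 7 members (35 ratios under 5 alternatives), 174 stayed within the counting interval of the value reported, and the exception was APOBEC3F in the combination against control, at 0.51 from FPKM with 0.1 added. The number of members at the fold threshold depended on the minimum count and the threshold. In the order exercise, radiation and combination against control, then combination against radiation and against exercise, it was 2, 3, 2, 1 and 2 without a minimum, through the sparse members. At 1.5-fold it was 1, 2, 2 and, in the combination against exercise, 3. In the combination against exercise it was 0 at a mean of 100 reads and 0 at 4-fold. For all genes in the same order, the counts were 5632, 6055, 6475, 5601 and 6686 without a minimum, 71, 221, 325, 23 and 597 at a mean of 100 reads, 1367, 1963, 2457, 1274 and 3101 at 1.5-fold, and 23, 69, 85, 11 and 138 at 4-fold. The adjusted p of the radiation term for APOBEC3B was 0.0742 with radiation as the single term and 0.36 with DESeq2. Leaving out 1 library at a time, edgeR adjusted p ran from 0.00532 to 0.441 for APOBEC3B, from 0.000326 to 0.0156 for APOBEC3C, from 0.00379 to 0.0774 for APOBEC3F and from 0.764 to 0.857 for APOBEC3D. These fits had radiation as their single term, so radiation and exercise are partly mixed in them. Each left 1 library of a radiation state, which was assumed to vary like the others. Genes called ran from 518 (without the combination library) to 1981, and DESeq2 called 949. From FPKM with 0.1 added, medians of interferon-stimulated genes were 0.21, 0.27 and 0.90 for radiation and combination against control and combination against exercise, and those of p53 targets were 1.13, 1.34 and 1.27. The cause of these shifts was not tested. No paired analysis was possible because each group has 1 library and the labels give no replicate numbers. The depth limits APOBEC3A, APOBEC3G and APOBEC3H, with at most 10 reads in a library.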
